A study of Mus musculus with 12 samples.

Results

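The 10 genes below belong to the unfolded protein response (UPR) and were followed: *Hspa5*, *Hsp90b1*, *Xbp1*, *Dnajb9*, *Dnajb11*, *Herpud1*, *Sdf2l1*, *Creld2*, *Pdia4* and *Edem1*. They were taken by gene symbol from the 24062 rows of an RNA-Seq count table, a choice made with earlier results of these data known. All 10 passed the filter on low counts that left 12154 genes for testing. The table holds 12 libraries of mouse embryonic fibroblasts (MEFs), which expressed either a control short hairpin RNA (*shRenilla*, against a luciferase that mouse cells lack) or *shBruce*#1, against *Birc6*, the gene of the ubiquitin ligase and inhibitor of apoptosis protein BRUCE. Each line was grown in fully supplemented medium (FM) or kept for 2 h in medium without serum and amino acids (Starv), with 3 replicates in each of the 4 conditions. Each hairpin was represented by a single line in these libraries, so that other differences between the lines cannot be told apart from the knockdown. The labels do not say whether replicates came from separate cultures, and p-values then measure only the spread between these libraries, which may be technical.

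The UPR adjusts the folding capacity of the endoplasmic reticulum (ER) to the load of secretory and membrane proteins. Its sensors are IRE1, which removes an intron from the *Xbp1* mRNA and so allows the active transcription factor to be made, ATF6, which is cleaved in the Golgi, and PERK, a kinase that lowers general translation and favors that of ATF4. ATF6 and spliced XBP1 are known to induce ER chaperones, folding enzymes and components of ER-associated degradation (ERAD). ATF4 is also translated when the kinase GCN2 senses a lack of amino acids, without any load on the ER. Gene-level counts cannot separate spliced from unspliced *Xbp1* mRNA, so the *Xbp1* values below are its total mRNA.

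*Birc6*, the targeted gene, had 4682, 3273 and 5061 normalized counts in *shRenilla* MEFs in FM and 4759, 4712 and 2787 in Starv, against 1207, 1265 and 1390 and 1175, 703 and 1226 in *shBruce* MEFs. The lines did not overlap in either medium, and the log2 fold change was -1.75 in FM (edgeR adjusted p = 0.0627) and -1.98 in Starv (edgeR adjusted p = 0.0186). Normalized counts are read counts divided by the relative effective size of each library. Total counts per library ranged from 7717265 to 18510540, and the shallowest library was replicate 1 of *shBruce* MEFs in Starv. Of 9 fibroblast markers 7 were high, while *Col3a1* had a median of 10.6 CPM (counts scaled to the library total) and *Thy1* was at 0 in 9 of the 12 libraries. Summed markers of blood, endothelium, epithelium and muscle did not exceed 9.56 CPM in any library. Replicate 3 of *shBruce* MEFs in FM stood apart in the share of its counts from the UPR genes, 0.412% against at most 0.357% in any other library. There 9 of the 10 lay above the mean of their condition, which was also so in replicate 3 of starved *shRenilla* MEFs. Counts that rest on replicate 3 of *shBruce* MEFs in FM or on the shallowest library are given without both as well, a choice made after the data were seen.

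The promoters of the UPR genes are shown for *Herpud1* and *Dnajb9*, which rose with starvation, for *Hspa5*, the textbook example of UPR control, and for *Creld2*, which carries the same motif as *Hspa5* and was lower in Starv. All 10 genes had 1 promoter entry each in the RefSeq table on GRCm38.p6, which covers 250 bases before and 50 bases after the start. Capitals mark matches, on either strand, to the ER stress response element (ERSE, CCAAT followed after 9 bases by CCACG), to ERSE-II (ATTGG followed after 1 base by CCACG) and to the core of the UPR element (TGACGTG). The letters CCACG are part of both ERSE and ERSE-II.
*Herpud1* (chr8:94386179-94386478, plus strand): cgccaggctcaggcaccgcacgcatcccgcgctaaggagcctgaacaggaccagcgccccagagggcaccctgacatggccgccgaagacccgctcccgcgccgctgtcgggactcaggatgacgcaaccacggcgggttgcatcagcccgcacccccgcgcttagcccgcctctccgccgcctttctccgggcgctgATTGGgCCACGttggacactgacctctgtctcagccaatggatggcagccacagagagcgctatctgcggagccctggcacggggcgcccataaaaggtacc
*Dnajb9* (chr12:44210019-44210318, minus strand): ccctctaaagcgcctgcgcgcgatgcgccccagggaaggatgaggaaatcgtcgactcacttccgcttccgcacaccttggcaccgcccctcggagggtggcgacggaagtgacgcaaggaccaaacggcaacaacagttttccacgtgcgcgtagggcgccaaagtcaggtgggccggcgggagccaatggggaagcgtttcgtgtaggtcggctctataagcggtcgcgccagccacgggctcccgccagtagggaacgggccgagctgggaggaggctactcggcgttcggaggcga
*Hspa5* (chr2:34771840-34772139, plus strand): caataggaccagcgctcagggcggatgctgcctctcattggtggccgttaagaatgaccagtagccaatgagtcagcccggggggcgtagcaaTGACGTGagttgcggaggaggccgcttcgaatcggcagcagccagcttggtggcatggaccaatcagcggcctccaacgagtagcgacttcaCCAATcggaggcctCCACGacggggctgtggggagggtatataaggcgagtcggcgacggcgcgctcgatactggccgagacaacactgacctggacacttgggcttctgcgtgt
*Creld2* (chr15:88819396-88819695, plus strand): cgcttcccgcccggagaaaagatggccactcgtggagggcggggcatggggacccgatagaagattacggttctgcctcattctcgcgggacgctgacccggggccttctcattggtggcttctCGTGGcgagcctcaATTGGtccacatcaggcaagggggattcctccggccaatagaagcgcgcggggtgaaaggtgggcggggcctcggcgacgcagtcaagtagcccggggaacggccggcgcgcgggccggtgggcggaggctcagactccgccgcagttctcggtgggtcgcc

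In GENCODE M21 on GRCm38 these genes lie as follows: *Herpud1* on chromosome 8 (94386438 to 94395377, plus strand), *Dnajb9* on chromosome 12 (44205559 to 44210326, minus strand), *Hspa5* on chromosome 2 (34771970 to 34777547, plus strand) and *Creld2* on chromosome 15 (88819646 to 88826683, plus strand). Positions of motifs count from the RefSeq start, which can differ from the end of the GENCODE gene. *Herpud1* held an ERSE-II match that begins 52 bases before the start. *Hspa5* held an ERSE match 65 bases and a UPR element core 157 bases before the start, and *Creld2* held an ERSE match on the opposite strand 126 bases before it. *Dnajb9* held none of the 3 motifs in this window. Among the promoters not printed, *Hsp90b1* had ERSE matches at 212 and 107 bases before the start, *Dnajb11* had an ERSE-II match 8 bases after it, and *Xbp1*, *Sdf2l1*, *Pdia4* and *Edem1* had no match. ERSE thus occurred in 3 of the 10 UPR genes against 0.137% of 27025 genes with a promoter in the table, ERSE-II in 2 against 0.0444%, and the UPR element core in 1 against 2.22%. In a list of 12 genes of the PERK-ATF4-CHOP arm, all in the table, none of the 3 motifs was found. With such low shares over all genes, that is likely for any list of this size. ERSE and ERSE-II were also absent from the covered sensor, ER translocation and cytosolic heat shock genes. The list of other ER chaperones held ERSE in *Calr*, *Canx*, *Dnajc3* and *Pdia6* of 29 covered genes, and the ERAD list held it in 2 of 16. A match describes the sequence only, and the absence of one says nothing about binding.

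In *shRenilla* MEFs in FM the UPR genes spanned a wide range of levels, compared here as normalized counts per kilobase of exon (mean ± SD, n = 3). *Hsp90b1*, the HSP90 of the ER, was at 5083 ± 183, and *Hspa5*, the HSP70 known as BiP, was at 4019 ± 13.8. The protein disulfide isomerase gene *Pdia4* was at 1082 ± 23.0, *Creld2*, which codes for a calcium-binding ER protein, at 1009 ± 56.2, and *Dnajb11*, a J-domain co-chaperone of BiP, at 973 ± 41.5. The libraries of *Pdia4* and *Creld2* overlapped, as did those of *Creld2* and *Dnajb11*. *Sdf2l1*, a partner of *Dnajb11* in the ER, followed at 560 ± 29.4. *Edem1*, which hands misfolded glycoproteins to ERAD, was at 216 ± 15.3 and overlapped with *Herpud1*, an ERAD membrane protein, at 197 ± 7.46. *Xbp1* at 169 ± 4.24 and *Dnajb9*, another J-domain co-chaperone of BiP, at 79.3 ± 11.3 were the lowest. Exon lengths are those of GENCODE M21, so the order depends on the transcripts the cells use.

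Starvation for 2 h raised *Herpud1* and *Dnajb9* in both lines, and no other UPR gene was called higher in either by the edgeR test. These are 2 of 10 genes, beside 9.69% of all 12154 genes tested that rose in *shRenilla* and 12.4% in *shBruce* MEFs. In *shRenilla* MEFs *Herpud1* had 442, 476 and 461 normalized counts in FM and 3652, 3667 and 4274 in Starv. In *shBruce* MEFs it had 544, 498 and 598 in FM and 4871, 4194 and 4168 in Starv. Every starved library was above every fed one, and the lowest starved value was several times the highest fed value. The fold change was 8.40 in *shRenilla* MEFs (log2 fold change 3.07, SE 0.13, edgeR adjusted p = 1.57e-08) and 8.06 in *shBruce* MEFs (log2 fold change 3.01, SE 0.13, edgeR adjusted p = 1.96e-08). Only 13 of the 12154 genes tested had a higher log2 fold change than *Herpud1* in *shRenilla* MEFs, and 28 in *shBruce* MEFs. In counts per kilobase *Herpud1* reached 1656 ± 152 in starved *shRenilla* and 1891 ± 171 in starved *shBruce* MEFs (SD, n = 3), which made it the third of the 10 genes, behind *Hsp90b1* and *Hspa5*. Since the samples were bulk RNA, a change in the number of expressing cells and a change in the RNA per cell cannot be told apart.

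*Dnajb9* had 233, 175 and 198 normalized counts in FM and 662, 794 and 797 in Starv in *shRenilla* MEFs, and 158, 113 and 205 in FM and 438, 559 and 763 in Starv in *shBruce* MEFs. Again no starved library overlapped with a fed one, although the starved *shBruce* libraries were spread more widely than the starved controls. It rose 3.71-fold in both lines, with log2 fold changes of 1.89 (SE 0.23, edgeR adjusted p = 0.000127) and 1.89 (SE 0.23, edgeR adjusted p = 0.000124). The exact permutation test over samples gave p = 0.1 for *Herpud1* and *Dnajb9* in each line, the smallest value that 3 libraries against 3 allow. The increase of both genes passed the edgeR threshold without any single library and without the 2 libraries named above. Over these and the other settings the log2 fold change of *Herpud1* lay between 2.99 and 3.15 in *shRenilla* and between 2.87 and 3.10 in *shBruce* MEFs, and that of *Dnajb9* between 1.79 and 2.01 and between 1.66 and 2.28.

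**Figure D1:**
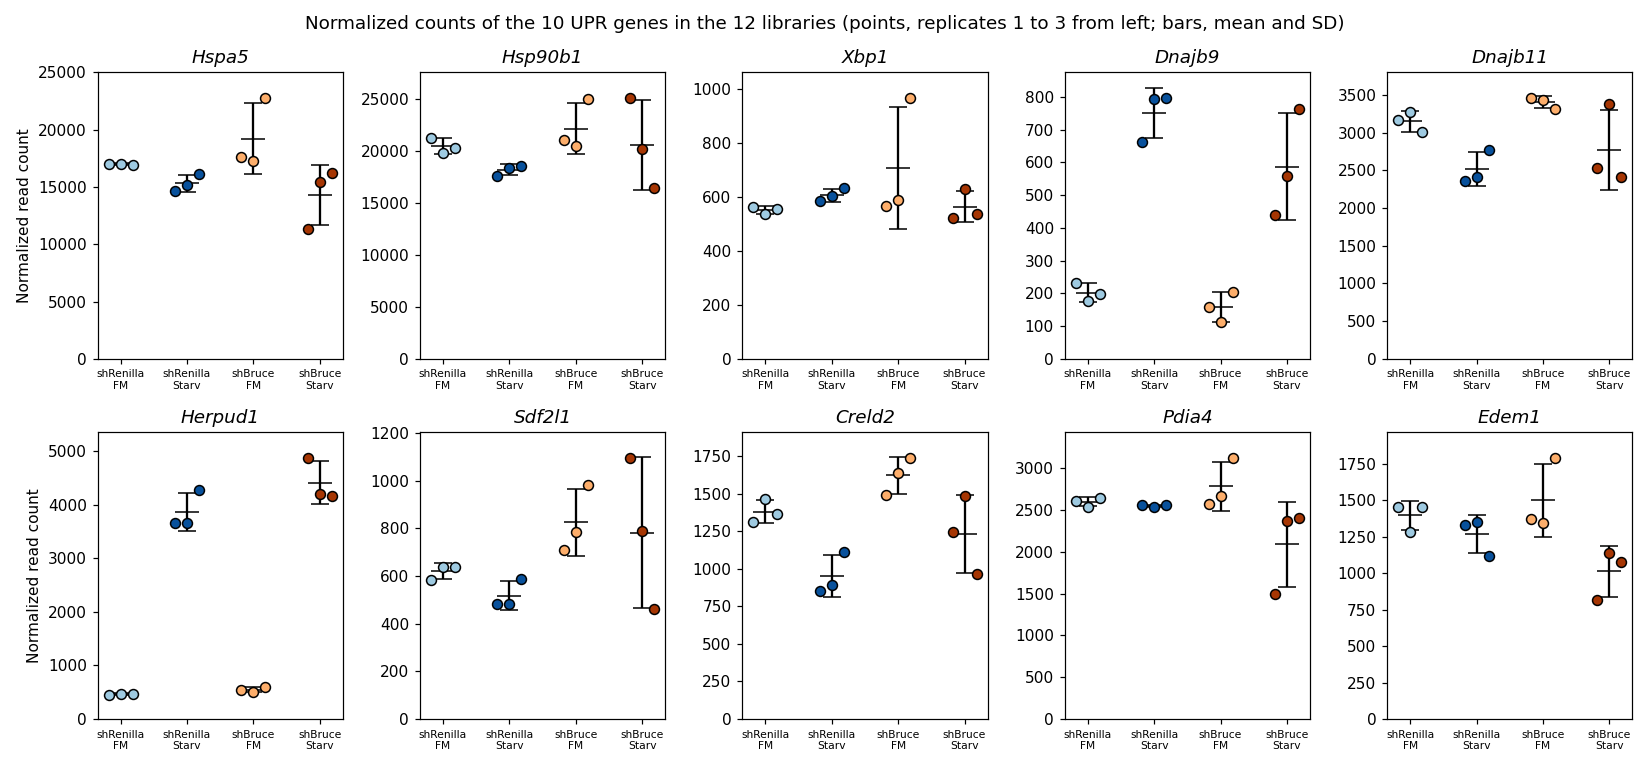
Normalized read counts of the 10 UPR genes (vertical axes, linear and starting at 0) in the 4 conditions (horizontal axes). Points are the 3 replicates of a condition, and bars give the mean and SD. *Herpud1* and *Dnajb9* are higher in the starved libraries of both lines, whereas the abundant chaperones *Hspa5* and *Hsp90b1* are not.

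The abundant ER chaperones were not called in either line by the edgeR test. *Hspa5* had 17047, 17013 and 16933 normalized counts in FM and 14644, 15157 and 16110 in Starv in *shRenilla* MEFs, and 17652, 17236 and 22770 in FM and 11326, 15460 and 16183 in Starv in *shBruce* MEFs. Its starved libraries were below the fed ones in both lines, but the log2 fold changes of -0.15 (SE 0.15, edgeR adjusted p = 0.522) and -0.42 (SE 0.15, edgeR adjusted p = 0.0567) did not pass the test. In *shBruce* MEFs *Hspa5* was called lower in 6 of 23 alternative analyses, with values from -0.52 to -0.15 and a lowest adjusted p of 0.0135 in edgeR with length and GC trends removed, whereas *Hsp90b1* was called in 0 of them in either line. The 95% intervals of -0.47 to 0.17 and -0.75 to -0.10 lay far below the increase of *Dnajb9*. *Hsp90b1* had log2 fold changes of -0.17 (95% interval -0.49 to 0.15) and -0.11 (-0.42 to 0.21). Of its annotated exon length 10.3% is shared with a pseudogene on the opposite strand that had 22 to 109 reads per library, which is small beside the reads of *Hsp90b1*. Entries on its own strand share 2.08% and 3.3%. Reads in shared bases may have been assigned to neither gene, which these counts cannot show. Total *Xbp1* mRNA was not called in either line. In *shRenilla* MEFs it went from 561, 535 and 556 to 583, 602 and 632 normalized counts (log2 fold change 0.14, edgeR adjusted p = 0.634). There its starved libraries were all above the fed ones. In *shBruce* MEFs it went from 566, 586 and 966 to 523, 630 and 537, with overlap (log2 fold change -0.33, edgeR adjusted p = 0.21, and -0.03 without replicate 3 in FM).

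A pair of UPR genes fell in a single line each. *Creld2* had 1311, 1462 and 1361 normalized counts in FM and 851, 891 and 1112 in Starv in *shRenilla* MEFs, with no overlap, and fell by 0.54 on the log2 scale (SE 0.16, edgeR adjusted p = 0.0327). In *shBruce* MEFs it went from 1491, 1637 and 1736 to 1245, 1485 and 964, also without overlap, with a log2 fold change of -0.40 that did not pass (SE 0.16, edgeR adjusted p = 0.0847). *Edem1* had 1369, 1343 and 1788 normalized counts in FM and 815, 1141 and 1078 in Starv in *shBruce* MEFs, and fell by 0.57 on the log2 scale (SE 0.16, edgeR adjusted p = 0.0189). In *shRenilla* MEFs it had 1453, 1283 and 1455 in FM and 1330, 1352 and 1117 in Starv, with overlapping libraries and a log2 fold change of -0.14 (SE 0.15, edgeR adjusted p = 0.565). The difference between the lines passed the test for neither gene, at 0.14 for *Creld2* (edgeR adjusted p = 0.87) and -0.42 for *Edem1* (edgeR adjusted p = 0.806). The fall of *Creld2* was lost without any one of replicates 1, 2 and 3 of *shRenilla* MEFs in FM or replicates 1 and 2 in Starv, and over all settings its edgeR, limma or DESeq2 adjusted p lay between 0.00354 and 0.142. The fall of *Edem1* was lost without replicate 3 of *shBruce* MEFs in FM, and its edgeR, limma or DESeq2 adjusted p ranged from 0.00329 to 0.118.

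*Dnajb11*, *Sdf2l1* and *Pdia4* were not called in either line by the edgeR test. *Dnajb11* fell short of the threshold with log2 fold changes of -0.32 (edgeR adjusted p = 0.112) in *shRenilla* and -0.30 (edgeR adjusted p = 0.125) in *shBruce* MEFs, and was called lower in 4 and 3 of 23 alternatives. *Pdia4* stayed between 2533 and 2646 normalized counts in the 6 *shRenilla* libraries (log2 fold change -0.03, 95% interval -0.36 to 0.31), while in *shBruce* MEFs it had 2570, 2664 and 3117 in FM and 1494, 2361 and 2403 in Starv (log2 fold change -0.41, edgeR adjusted p = 0.0753). In that line *Pdia4* was called lower in 5 of 23 alternatives. Without single libraries its value ran from -0.53 without replicate 3 of starved *shBruce* MEFs to -0.24 without replicate 1 of starved *shBruce* MEFs, and it passed without replicate 2 or without replicate 3 of that condition. *Sdf2l1*, called in 0 alternatives, had log2 fold changes of -0.26 and -0.09, and its starved *shBruce* libraries were the most scattered, at 1094, 787 and 462 normalized counts.

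Besides the 2 UPR genes that rose, 1 of the 10 fell in each line, against 7.27% of all genes in *shRenilla* and 10.6% in *shBruce* MEFs. Their median log2 fold change was -0.15 in *shRenilla* and -0.31 in *shBruce* MEFs, beside -0.01 and 0.02 over all genes. The background itself depended on scaling: 1178 genes rose and 883 fell in *shRenilla* MEFs, but 1588 rose and 641 fell under upper-quartile scaling, and 1319 rose and 1539 fell once trends in length and GC content were taken out, and in *shBruce* MEFs 1506 and 1284 became 1991 and 933, and 1580 and 2179. The libraries of the 2 media did not overlap for 7 of the 10 in *shRenilla* MEFs, of which 3 were higher and 4 lower in Starv, against 52.4% of all genes. In *shBruce* MEFs they did not overlap for 6, of which 2 were higher and 4 lower, against 30.9%. The 3 calls in *shBruce* MEFs became 6 without replicate 2 and 5 without replicate 3 of *shBruce* MEFs in Starv, 2 without replicate 3 of *shBruce* MEFs in FM, and 2 without both that library and replicate 1 in Starv. They also became 5 with DESeq2 and 7 with the length and GC trends removed. Every added call was a decrease, and *Herpud1* and *Dnajb9* remained the calls in the upward direction. The 3 calls in *shRenilla* MEFs were 3 without those 2 libraries.

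The ratio of 2 genes within a library does not depend on how libraries are scaled, and was taken for the pair that rose against *Hspa5*, a choice made with the values known. The log2 ratio of *Herpud1* to *Hspa5* counts was -5.27, -5.16 and -5.20 in FM and -2.00, -2.05 and -1.91 in Starv in *shRenilla* MEFs. In *shBruce* MEFs it was -5.02, -5.11 and -5.25 in FM and -1.22, -1.88 and -1.96 in Starv. It thus rose by 3.22 and 3.44 on the log2 scale, and no starved library came near a fed one (exact permutation p = 0.1 in each line). The ratio of *Dnajb9* to *Hspa5* rose by 2.05 in *shRenilla* and 2.32 in *shBruce* MEFs (exact permutation p = 0.1 in each line).

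All 12 genes of the PERK-ATF4-CHOP list rose in both lines, against 9.69% of all genes in *shRenilla* and 12.4% in *shBruce* MEFs. Their median log2 fold change was 1.55 in *shRenilla* and 1.26 in *shBruce* MEFs. The list was chosen with earlier results of these data known. *Trib3*, a pseudokinase that inhibits AKT, rose by 4.17 and 3.92 on the log2 scale, *Chac1*, which degrades glutathione, by 3.62 and 3.41, and *Ddit3*, the gene of the transcription factor CHOP, by 2.84 and 3.45 (edgeR adjusted p from 6.61e-09 to 7.57e-07). *Atf4* itself rose by 1.07 and 1.12. The 12 calls held under every setting in *shRenilla* MEFs, and at least 11 did so in *shBruce* MEFs. As ATF4 also responds to a lack of amino acids, which the starvation medium imposed, PERK and GCN2 cannot be told apart in these counts.

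The sensors themselves were not called higher in either line. In *shRenilla* MEFs none of 12 sensor and UPR regulator genes was called with edgeR or DESeq2 (1 at an unadjusted p under 0.05, *Eif2ak3*). In *shBruce* MEFs *Atf6b*, a relative of *Atf6*, fell by 0.37 on the log2 scale (edgeR adjusted p = 0.046). *Ern1*, the gene of IRE1, had log2 fold changes of 0.48 and -0.10 (SE 0.40 and 0.41), *Atf6* of 0.00 and -0.28, and *Eif2ak3*, the gene of PERK, of 0.66 and 0.26 (edgeR adjusted p = 0.101 and 0.501). The *Eif2ak3* value in *shRenilla* MEFs passed without replicate 1 or replicate 3 of the starved *shBruce* libraries, which enter through the shared estimate of the spread.

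Of 37 other ER chaperones and folding enzymes, 0 rose and 1 fell in *shRenilla* MEFs, and 1 rose and 4 fell in *shBruce* MEFs, with medians of -0.13 and -0.15. *Mogs*, which trims glucose from new glycoproteins, fell in both lines, by 0.61 and 0.49 on the log2 scale. In *shBruce* MEFs *Txndc5* and *Txndc11*, which code for thioredoxin-like proteins, and *Hyou1*, a large HSP70 relative of the ER, also fell, by 0.60, 0.51 and 0.56, whereas *Cnpy2* rose by 0.59. Of 24 ERAD genes tested, 1 rose and 1 fell in *shRenilla* MEFs, and 1 rose and 3 fell in *shBruce* MEFs. *Herpud2*, the paralog of *Herpud1*, was the one that rose, by 0.77 and 0.82 (edgeR adjusted p = 0.000363 and 0.000213), and the ubiquitin-conjugating enzyme gene *Ube2g2* fell by 0.63 and 0.64. *Nploc4*, a cofactor of the p97 segregase, was among those that fell in *shBruce* MEFs. None of 23 genes of ER translocation and signal sequence processing was called in *shRenilla* MEFs with edgeR (7 at an unadjusted p under 0.05 and 4 with DESeq2). All 23 values were nevertheless below 0 in that line, with a median of -0.23, against 6137 of 12154 genes tested. In *shBruce* MEFs 1 rose (*Sec62*) and 2 fell (*Srpr* and *Srprb*), with 8 values above and 15 below 0. Without replicate 3 of starved *shBruce* MEFs, 5 ERAD genes rose and 6 fell in that line, and 7 chaperones fell.

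Cytosolic heat shock chaperones, which are under the heat shock factor and not under the UPR, fell in 8 of 19 cases in each line and rose in none, with medians of -0.50 and -0.45. *Hspa1b*, an inducible HSP70, fell by 1.73 and 1.80 on the log2 scale, and *Hspa8*, the constitutive HSP70, by 1.01 and 0.96. *Dnaja1*, a J-domain partner of cytosolic HSP70, fell by 0.69 in *shRenilla* MEFs, and *Hsph1*, a nucleotide exchange factor of HSP70, by 0.93 in *shBruce* MEFs. In *shRenilla* MEFs the 8 calls became 3 to 6 without any one of that line's 6 libraries and 12 without replicate 3 of starved *shBruce* MEFs. In *shBruce* MEFs they stayed between 6 and 11 without any single library, with 1 gene called higher without replicate 3 in Starv. Without the 2 libraries named above the calls were 10 and 11.

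**Figure D2:**
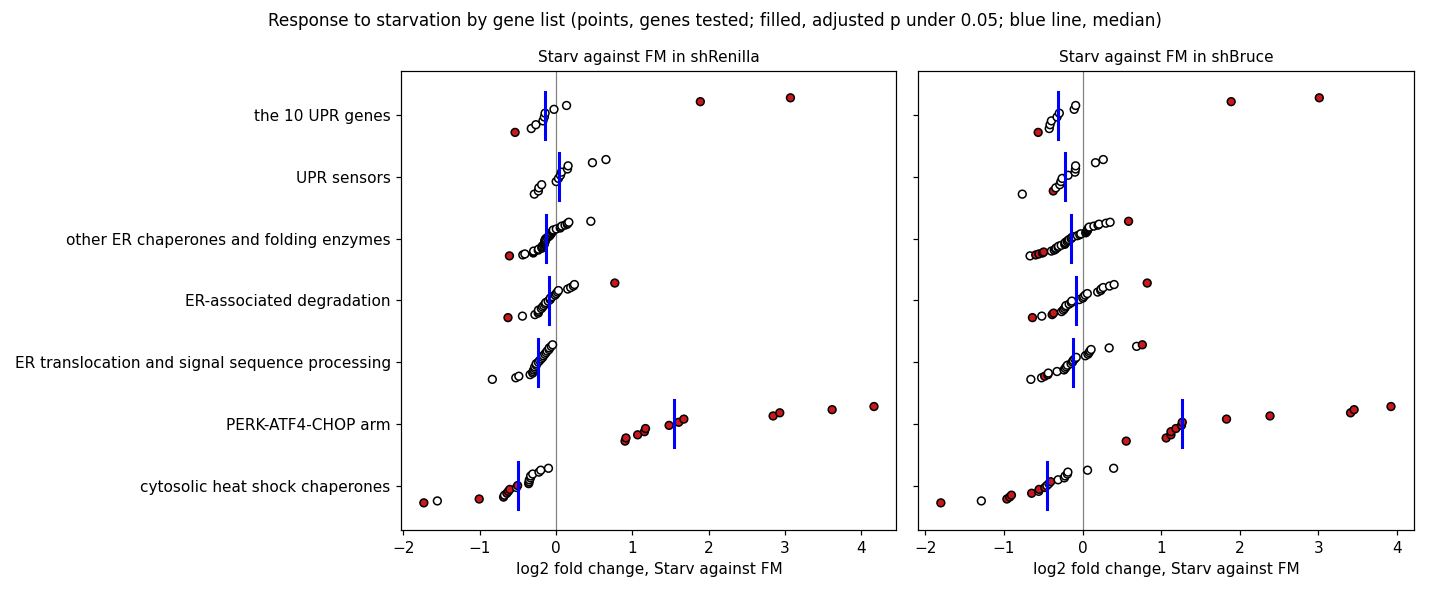
Response to starvation of the 10 UPR genes and 6 related gene lists in *shRenilla* (left) and *shBruce* MEFs (right). Each point is a gene at its log2 fold change in Starv against FM (horizontal axis), filled where the edgeR adjusted p was under 0.05, and the blue lines are list medians. All 12 points of the PERK-ATF4-CHOP list are filled and to the right of 0 in both panels, where *Herpud1* and *Dnajb9* are the UPR genes that join them. The lists were chosen with earlier results of these data known.

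The knockdown was next compared in each medium. In FM none of the 10 UPR genes differed between *shBruce* and *shRenilla* MEFs by the edgeR or DESeq2 test, with 0 also at an unadjusted p under 0.05, against 14.4% of all genes at that unadjusted level. Over all genes 0% were called higher and 0% lower with edgeR. The values were above 0 for 9 of the 10 genes (8 with length and GC trends removed, where *Creld2* was at -0.002, and 8 without replicate 3 of *shBruce* MEFs in FM, where *Edem1* was at -0.04), from 0.10 for *Pdia4* to 0.41 for *Sdf2l1*, and below 0 for *Dnajb9*, at -0.35. Their median was 0.15, beside 0.01 over all genes, and 0.06 without replicate 3 of *shBruce* MEFs in FM and replicate 1 in Starv. The libraries of the lines did not overlap for 6 genes, all higher in *shBruce* MEFs (*Hspa5*, *Xbp1*, *Dnajb11*, *Herpud1*, *Sdf2l1* and *Creld2*), against 33.4% of all genes. For *Herpud1* the 95% interval of the log2 difference was -0.01 to 0.51, and for *Sdf2l1* it was -0.10 to 0.92.

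In Starv the knockdown again left the UPR genes without a call, by edgeR and by DESeq2, although 12.8% of all genes were called higher and 11.2% lower in starved *shBruce* MEFs. At an unadjusted p under 0.05 there were 2, *Sdf2l1* and *Creld2*, against 41.2% of all genes. *Sdf2l1* had 481, 484 and 586 normalized counts in starved *shRenilla* and 1094, 787 and 462 in starved *shBruce* MEFs, a log2 difference of 0.59 (SE 0.24, edgeR adjusted p = 0.0856) with overlapping libraries. *Creld2* differed by 0.37 (SE 0.16, edgeR adjusted p = 0.0934), also with overlap. Both differences changed sign, to -0.08 and -0.14, when trends with transcript length and GC content were removed. *Dnajb9* was at -0.35, *Edem1* at -0.32 and *Pdia4* at -0.29. The lines did not overlap for *Pdia4* only, lower in *shBruce* MEFs, against 34.9% of all genes. Without replicate 3 of starved *shBruce* MEFs 3 genes passed (*Dnajb9* lower, *Sdf2l1* and *Creld2* higher), without replicate 3 of starved *shRenilla* MEFs 1 passed (*Creld2*), and without the 2 libraries named above 0 passed.

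The response to starvation did not differ detectably between the lines for any of the 10 genes. The interaction of line and medium was called for 0 of them by edgeR and DESeq2, with 0 at an unadjusted p under 0.05, against 0% of all genes after adjustment and 3.9% without it. For *Herpud1* the log2 difference between the responses was -0.06, with a 95% interval of -0.42 to 0.30, and for *Dnajb9* it was 0.00, with an interval of -0.79 to 0.78. The values farthest from 0 were -0.46 for *Xbp1* (95% interval -1.01 to 0.08), -0.42 for *Edem1* (-0.89 to 0.05) and -0.39 for *Pdia4* (-0.87 to 0.09). These depended on single libraries. Without replicate 3 of *shBruce* MEFs in FM *Xbp1* was at -0.17 and *Edem1* at -0.28, and without replicate 1 of starved *shBruce* MEFs *Pdia4* was at -0.23.

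**Figure D3:**
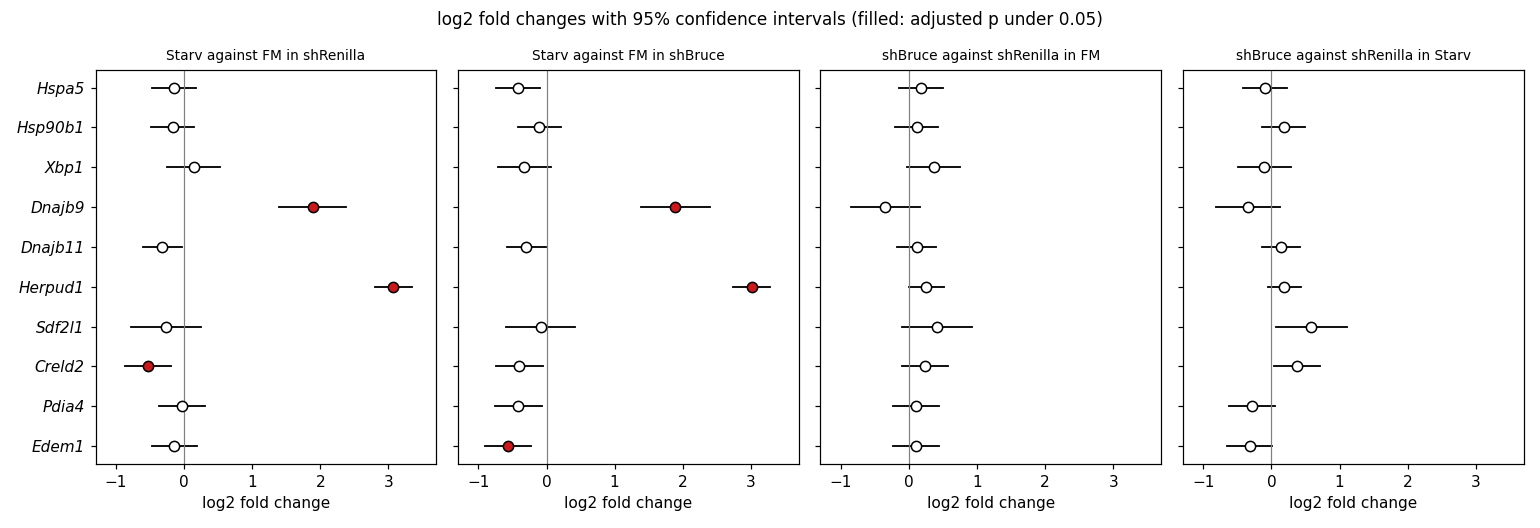
Log2 fold changes of the 10 UPR genes (rows) with their 95% confidence intervals (lines) in the 4 comparisons (panels), filled where the edgeR adjusted p was under 0.05. *Herpud1* and *Dnajb9* lie far to the right of 0 in both starvation panels, *Creld2* and *Edem1* are filled to the left in a single panel each, and no point is filled in the knockdown panels.

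Other ER genes were called between starved *shBruce* and *shRenilla* MEFs by edgeR, in the fit that keeps trends with length and GC content. Removal of those trends changed the sign of *Sdf2l1* and *Creld2* in this comparison, and values of the lists without them are not given here. Of the 37 other ER chaperones 8 were higher, among them the prolyl isomerases *Fkbp2* and *Ppib* at 0.90 and 0.68 on the log2 scale and *Cnpy2* at 0.66, and 4 were lower, among them the HSP70 relative *Hspa13* at -0.74, the ER oxidase *Ero1lb* at -0.65 and the glycoprotein folding sensor *Uggt1* at -0.49. Of the 23 translocation genes 7 were higher, led by *Srp19* at 1.24, *Sec61g* at 1.07 and *Sec11c* at 0.97, and *Ssr3* was lower at -0.68. *Srp19* ran from 940 to 4057 normalized counts in starved *shBruce* MEFs, which overlapped with 836 to 1053 in starved *shRenilla* MEFs. *Sec61g* had few reads, with means of 20.7 normalized counts in starved *shBruce* and 10.3 in starved *shRenilla* MEFs. In the list of 12 sensor and UPR regulator genes, *Creb3l2*, *Mbtps2* and *Atf6* were lower, at -1.03, -0.72 and -0.59. Of these only *Atf6* codes for a sensor. *Nupr1* and *Cebpb* of the PERK-ATF4-CHOP list were higher, by 0.69 and 0.59. In the ERAD list *Vcp* and *Aup1* were higher, and *Edem3* and the glycosylation enzyme gene *Stt3b* lower. Of the heat shock chaperones *Hsp90aa1* and *Cryab* were higher and *Dnajb4* and *Hspa4l* lower. These counts depended on single libraries: no gene of these lists was called without replicate 1 or replicate 2 of starved *shRenilla* MEFs or without replicate 2 of starved *shBruce* MEFs. Without replicate 3 of starved *shBruce* MEFs, 15 chaperones were higher and 8 lower. Without the 2 libraries named above, 1 chaperone was higher and 2 lower, and 3 translocation genes were higher and 1 lower. In FM no gene of the 6 lists was called by edgeR, with 1 to 6 per list at an unadjusted p under 0.05, and DESeq2 called 2 genes of the PERK-ATF4-CHOP list higher.

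The 10 genes also varied among replicates of a condition. Replicates of *shRenilla* MEFs lay within 0.24 of their condition mean on the log2 CPM scale for every gene, whereas those of *shBruce* MEFs deviated by up to 0.67. In replicate 3 of *shBruce* MEFs in FM all but *Dnajb11* were above the mean, with *Xbp1* the highest at 0.50. In replicate 1 of starved *shBruce* MEFs deviations ran from -0.45 for *Pdia4* to 0.57 for *Sdf2l1*, and in replicate 3 from -0.67 for *Sdf2l1* to 0.42 for *Dnajb9*. Over the 12 libraries, with condition means removed, Pearson's r was 0.92 between *Hspa5* and *Pdia4*, 0.92 between *Hsp90b1* and *Sdf2l1*, 0.82 between *Pdia4* and *Edem1* and 0.81 between *Dnajb11* and *Creld2*, while it was -0.33 between *Hspa5* and *Hsp90b1*. The points share libraries, depth and base composition, and these values are descriptions. *Herpud1* and *Dnajb9* had r = 0.93 over the 12 libraries and 0.08 once condition means were removed.

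**Figure D4:**
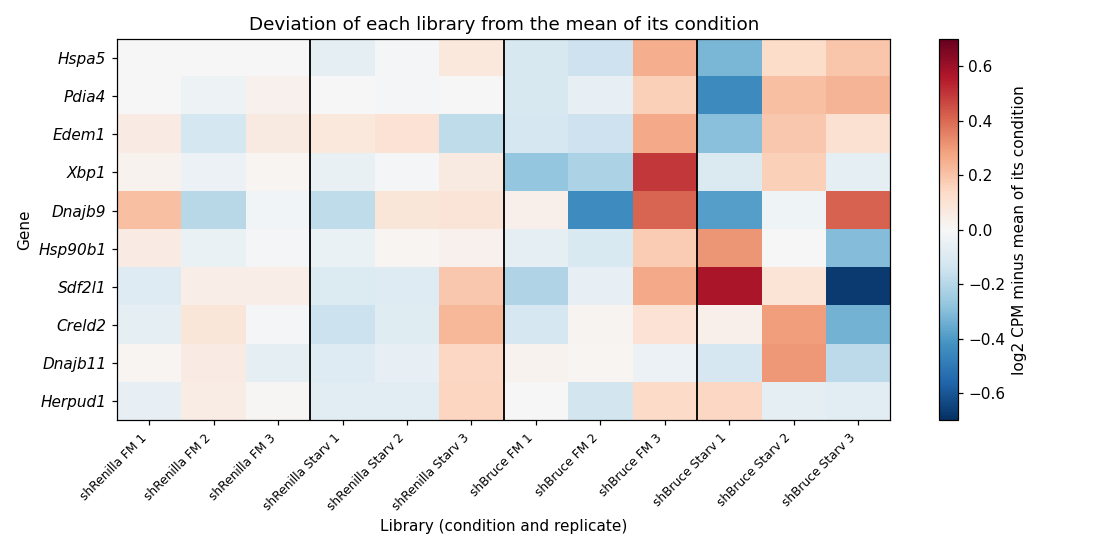
Deviation of each library (columns, grouped by condition) from the mean of its condition for the 10 UPR genes (rows), in log2 CPM (color, red above and blue below). The strongest colors are in the *shBruce* libraries, with *Hspa5*, *Pdia4* and *Edem1* of one color in replicate 1 of starved *shBruce* MEFs and *Sdf2l1* and *Hsp90b1* of the other.

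The genes whose pattern was most like the mean standardized log2 CPM of the 10 UPR genes over the 12 libraries were *Pex19* (Pearson's r 0.95), *Fgfbp1* (0.94), *Cyp51* (0.94), *Pdia6* (0.94), *Gskip* (0.93), *Cyb5* (0.93), *P4ha2* (0.92), *Rab32* (0.92), *Nek6* (0.92) and *Crabp2* (0.91). *Pdia6* codes for an ER protein disulfide isomerase and *P4ha2* for a subunit of collagen prolyl hydroxylase in the ER. That mean was highest in replicate 3 of *shBruce* MEFs in FM, at 1.19, and between -0.50 and 0.31 in the other 11 libraries. With *Herpud1* alone, the most alike genes were *Trib3* and *Chac1* (r = 0.996 for each), and with *Dnajb9* alone it was *Cebpg* (0.992), a choice of patterns made with the values known. All of the 10 most alike genes reached at least 0.986 with *Herpud1* and 0.984 with *Dnajb9*. Apart from the genes named, they belong to none of the lists used here. These r values include the difference between the media.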

How the data were processed

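The authors mapped poly(A)-enriched single-end reads to mm10 with STAR 2.4.0d, after removing rRNA reads, and counted them per gene with HTSeq 0.5.4p3. The deposited table holds raw read counts for 24062 gene symbols in 12 libraries, with 7717265 to 18510540 counts each. The annotation and the strand setting are not given in the sources used here, so reads of overlapping antisense genes cannot be told apart. The test was that of edgeR 4.0.16 under R 4.3.3 (TMM normalization, filterByExpr, all libraries fitted together with 1 coefficient per condition, two-sided quasi-likelihood test, Benjamini-Hochberg adjustment over 12154 genes, level 0.05). Intervals are at 95%. Libraries of a condition differed beyond counting error (chi-square per degree of freedom from 2.24 to 98.4), so none was counted as a duplicate.

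The 10 genes and the 6 related lists, written from general knowledge, were chosen with earlier results of these data known. Named genes are the 10, up to 3 called genes per direction of each list and comparison, any sensor or PERK-ATF4-CHOP gene, *Birc6*, and the 10 genes with the highest Pearson correlation to the mean of the 10 over the 12 libraries, at a mean of at least 50 normalized counts. Where a list had few calls, all were named, except a gene that is not reported here. Gene lengths came from GENCODE M21 and promoters from RefSeq on GRCm38.p6. One ERAD gene of 26 was not analysed here and 1 did not pass the filter. DESeq2 1.42.0, limma 3.58.1 (voom), other scalings, filters and left-out libraries were alternatives. The fit was tested on simulated data with known changes, for Starv against FM in *shRenilla* MEFs only. The counts were drawn with the spread that the fit itself estimated. It recovered 75 of 100 changes of 1 on the log2 scale and 97 of 100 changes of 2. Of 11954 unchanged genes 5 were called. Smaller changes were not simulated. Python 3.11.15 and matplotlib 3.10.9 were used for the figures.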

Additional observations from a re-analysis of the deposited data

How the results depend on the processing

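Across the 5 comparisons and 10 UPR genes, 1053 of 1140 values kept their direction and their side of the threshold, 10 lost a call, 25 gained one and 52 changed sign, none of which was a call on either side. *Herpud1* and *Dnajb9* were called as higher in Starv in both lines under every alternative. The count of calls in *shBruce* MEFs under starvation, 3, became 5 with DESeq2, 7 with length and GC trends removed and 7 with the replicate block and trends removed. DESeq2 also called *Hspa5* and *Pdia4* lower, and with trends removed, with or without the block, *Hspa5*, *Dnajb11*, *Creld2* and *Pdia4* were also called lower. It ranged from 2 to 6 without single libraries. The count for the knockdown in Starv ranged from 0 to 3 without single libraries. The fall of *Creld2* in *shRenilla* MEFs was also lost with upper-quartile normalization and with the replicate block, and that of *Edem1* in *shBruce* MEFs when only the groups compared entered the fit. The cause was not tested.

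Upper-quartile normalization brought the median of all genes to 0.11 (log2, 0.021 otherwise) in *shBruce* MEFs under starvation, and turned *Pdia4* in *shRenilla* MEFs to 0.055. With the trends removed, and with the replicate block as well, the FM knockdown value of *Creld2* became -0.002 and -0.005. The Starv knockdown values became 0.039 and 0.035 for *Hspa5*, -0.053 and -0.056 for *Herpud1*, -0.076 and -0.073 for *Sdf2l1*, -0.137 and -0.142 for *Creld2*. The interaction became -0.021 and -0.028 for *Dnajb11*, -0.202 and -0.198 for *Sdf2l1*, -0.135 and -0.137 for *Creld2*. That of *Dnajb9*, near 0, became 0.003 (DESeq2 size factors), 0.005 (upper quartile), 0.002 (DESeq2), 0.018 (limma-voom), 0.008 (at least 10 counts in every library), 0.001 (replicate block).

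Uncalled values that changed sign when libraries were left out ranged under starvation in *shBruce* MEFs from -0.418 to 0.183 for *Sdf2l1*, -0.288 to 0.032 for *Hsp90b1*, -0.462 to 0.007 for *Xbp1*. They ranged for the knockdown in FM from -0.043 to 0.176 for *Edem1*. They ranged for the knockdown in Starv from -0.192 to 0.035 for *Hspa5*, -0.005 to 0.317 for *Hsp90b1*, -0.028 to 0.232 for *Dnajb11*. They ranged for the interaction from -0.236 to 0.372 for *Dnajb9*, -0.14 to 0.12 for *Dnajb11*, -0.163 to 0.019 for *Herpud1*, -0.133 to 0.202 for *Hsp90b1*, -0.168 to 0.446 for *Sdf2l1*, -0.022 to 0.289 for *Creld2*.

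Correlations of the deviations of replicates with the same number ran from -0.456 to 0.347. Between the lines in FM each library correlated best with its own number, but at r = 0.064 to 0.157, and in no other pair of conditions did all libraries do so. In no pair of conditions was every correlation over 0.1, and the numbers were not taken to pair the samples. With the replicate block, 2 UPR genes were called under starvation in *shRenilla* and 3 in *shBruce* MEFs, and 0 for the knockdown in either medium or the interaction. Without replicate 3 of *shBruce* MEFs in FM and replicate 1 in Starv the calls were 3, 2, 0, 0 and 0.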
